A study of Mus musculus with 10 samples.

Results

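The metzincin metalloproteinases and their tissue inhibitors were measured in 10 spontaneous mammary tumors, as 65 of the 18193 genes that the array annotation resolved. They comprised 18 matrix metalloproteinases (Mmp), 28 Adam genes, 15 Adamts genes and the 4 Timp genes, chosen by gene symbol alone. Each gene was represented by the probe set annotated to it alone that had the highest mean signal over the 10 arrays. Family genes that this rule did not find, such as Mmp15, Adamts2 and Adamts13, were not analysed here.

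The tumors came from female FVB/N-Tg(MMTVneu) mice (Tg-neu), in which the mouse mammary tumor virus promoter drives the neu proto-oncogene in the mammary gland. From the first palpable tumor, mice received lovastatin (Lov) at 10 mg/kg or the ethanol vehicle (Vhcl) intraperitoneally, 3 times per week for 6 weeks. Lovastatin blocks HMG-CoA reductase, which controls the flux of sterol and isoprenoid synthesis. Per-tumor values are given throughout in the order A19, A48, A50, A55, AB10 for Lov and A45, A49, A54, A59, AB11 for Vhcl. Both groups carried the transgene, mouse ages were not given in the sources used here, and a free-text label calls the controls untreated although their treatment field gives vehicle. Each group had 5 mice per the labels, which do not say which mouse a tumor came from, so p-values measure the spread between these tumors.

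Matrix metalloproteinases are zinc endopeptidases, secreted or held at the cell surface, that are made as inactive precursors and cleave collagens and other matrix proteins once the propeptide is removed. ADAMs are membrane-anchored relatives, several of which release growth factors, cytokines and receptors from the cell surface, while the secreted ADAMTS enzymes cut proteoglycans, procollagens and other matrix proteins. TIMPs bind the active sites of these enzymes, each with its own range of targets. In mammary tumors much of this system is made by fibroblasts and macrophages as well as by the tumor cells. RNA came from whole tumors, so fewer cells of a type and less RNA per cell cannot be told apart.

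Values are log2 signals after Robust Multi-array Analysis (RMA), and differences are the Lov mean minus the Vhcl mean. A log2 signal of one probe set cannot be set against that of another. Unless another test is named, p-values are 2-sided limma p-values, adjusted by the Benjamini-Hochberg method over 45037 probe sets. No probe set of the array passed a false discovery rate of 0.05 (lowest adjusted p = 0.369), although 2379 had an unadjusted p under 0.05. The lowest adjusted p of any of the 65 genes was 0.919, so every gene called lower or higher here is so only at an unadjusted p under 0.05.

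Of the 65 genes, 4 were lower in Lov-treated tumors (6.15%), namely Mmp13, Adam9, Adamts15 and Timp1. Over all genes 2.75% were lower. Only Mmp16 was higher (1.54%), against 3.5% of all genes. The median difference was -0.02 over the 65 genes and 0.00 over all genes. Most of the system differed little between the groups, with 53 genes (81.5%) within 0.25 on the log2 scale, as were 83.6% of all genes. In none of the 65 genes did the groups separate without overlap, whereas 0.693% of all genes did so. Mmp13 alone was both called and at least 2-fold different, which 0.566% of all genes did. The mean signal was above the median of all probe sets (5.02) for 30 of the 65 genes and at or below it for 35.

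**Figure D1:**
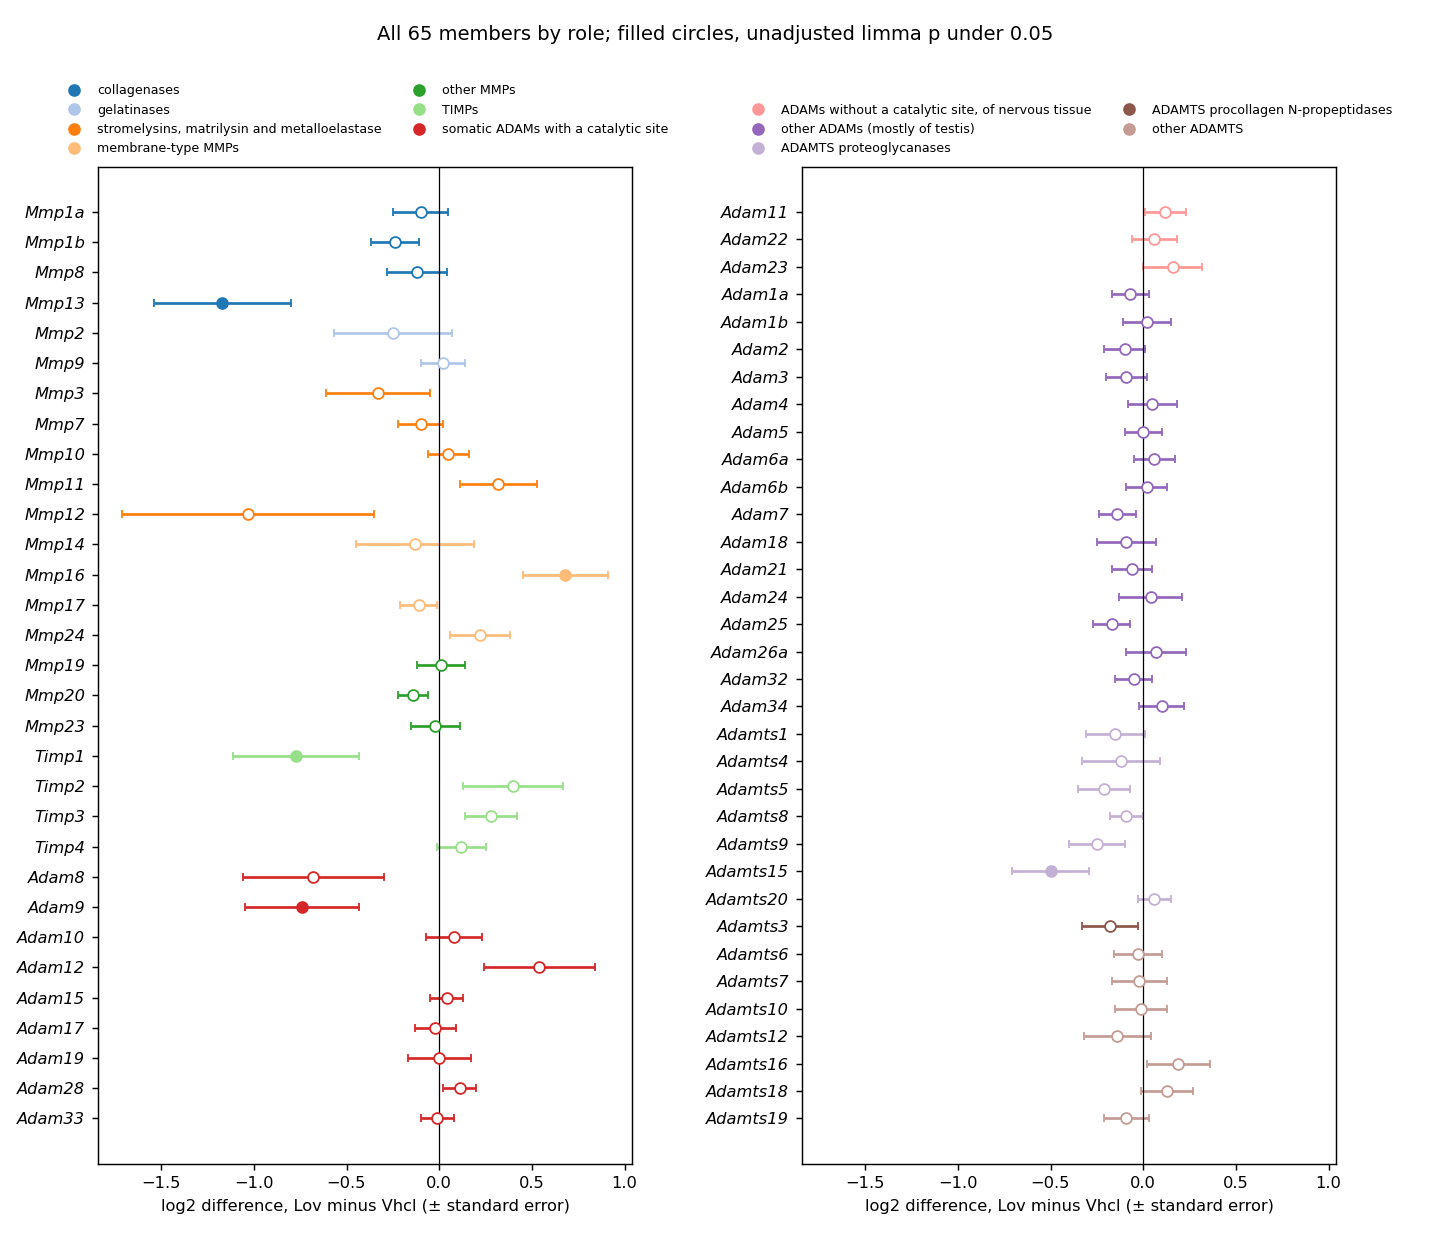
Log2 difference (Lov minus Vhcl, with its limma standard error, n = 5 tumors per group) of all 65 genes, grouped and colored by role; filled circles mark an unadjusted p under 0.05. Mmp13 lies farthest to the left at -1.17 and Mmp16 farthest to the right at 0.68, while most genes lie close to 0.

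Neighboring tissue and RNA quality differed between tumors. The mean log2 signal of 6 skeletal muscle genes was 8.34 in Lov A55, and 8.59 and 8.75 in Vhcl A54 and A59, against 4.06 to 5.81 in the other tumors. Salivary gland genes averaged 11.93 in Vhcl AB11 and 3.29 to 6.91 elsewhere. The 3′ minus 5′ signal of beta-actin, which increases as RNA degrades, was 0.67 to 1.07 in Lov-treated and 0.80 to 1.35 in Vhcl-treated tumors. Epithelial genes had means of 9.16 to 9.65 with Lov and 9.56 to 10.27 with Vhcl, so markers of the labelled tissue were present in every tumor. Of 7 measured, Krt7 was lower (difference -1.10, unadjusted p = 0.0305) and none was higher, where 2.75% of all genes were lower and 3.5% higher.

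Mmp13 encodes collagenase 3, which cleaves fibrillar collagens, and showed the lowest limma p of the 65 genes. Its log2 signals were 4.63, 3.75, 3.18, 2.64 and 3.50 in the Lov-treated tumors, against 4.70, 5.72, 4.30, 4.85 and 3.99 in the Vhcl-treated tumors. Lov A19 was the only Lov-treated tumor that reached the Vhcl range, and the other 4 lay below every Vhcl-treated tumor. The mean was 3.54 ± 0.74 with Lov and 4.71 ± 0.66 with Vhcl (SD, n = 5 each), a 2.25-fold lower signal (log2 difference -1.17, standard error 0.37; unadjusted p = 0.00884, adjusted p = 0.919). The exact permutation test, whose smallest possible p is 0.00794, gave p = 0.0317 (2-sided) for Mmp13. By that test Mmp20 had a lower p (exact permutation p = 0.0238), with a difference of -0.14. The study selected Mmp13 for its difference on these arrays, so its difference is not independent evidence. Both group means lie below the median signal of the array (5.02), and on linear signals the unadjusted p was 0.0513.

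The other collagenases, Mmp1a, Mmp1b and Mmp8, had differences of -0.10, -0.24 and -0.12, and none passed the test. Mmp1a and Mmp1b are close copies of each other, and whether their probe sets share signal was not tested. Mmp12, the macrophage metalloelastase that degrades elastin, varied more than any other of the 65 genes (SD 1.33 over 10 tumors). Its signals were 7.78, 5.84, 5.09, 4.82 and 4.78 in the Lov-treated tumors, against 6.11, 8.64, 5.99, 7.37 and 5.36 in the Vhcl-treated tumors. Lov A55, AB10 and A50 were below every Vhcl-treated tumor, while Lov A19 was second only to Vhcl A49. The difference of -1.03 (standard error 0.68) was within the spread (unadjusted p = 0.155; exact permutation p = 0.214). It was -1.56 (unadjusted p = 0.02) without Lov A19. That tumor was the highest of the Lov group, so leaving it out widens the difference by construction. Macrophage marker genes averaged 7.21 to 8.04 with Lov and 7.57 to 8.0 with Vhcl. Among 9 measured, Csf1r was higher by 0.43 and Itgam lower (difference -0.34), where 3.5% of all genes were higher and 2.75% lower. The part of these marker genes in the Mmp12 signal was not tested.

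Mmp13 and Mmp12 are neighbors at one end of the Mmp gene cluster on mouse chromosome 9. The order along the chromosome is Mmp13, Mmp12, Mmp1b, Mmp3, Mmp1a, Mmp10, Mmp8, Mmp27, Mmp20 and Mmp7, of which Mmp27 was not analysed here. Of the 9 measured, the differences beyond Mmp13 and Mmp12 were between -0.33 (Mmp3, stromelysin 1) and 0.05 (Mmp10, stromelysin 2), and none of these passed the test. Several promoters of the cluster hold the AP-1 motif, TGAGTCA or its reverse complement TGACTCA, which Fos and Jun proteins bind. The 110 bases before the start of each such gene are shown because they place that motif for the genes with the largest differences beside their neighbors. The sequences are those of RefSeq (build GRCm38.p6), read 5′ to 3′ along the gene, with the motif in capitals.
Mmp13 promoter, chr9:7272404-7272513, plus strand: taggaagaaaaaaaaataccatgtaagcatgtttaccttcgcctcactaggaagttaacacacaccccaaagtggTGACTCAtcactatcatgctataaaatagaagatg
Mmp12 promoter, chr9:7347264-7347373, plus strand: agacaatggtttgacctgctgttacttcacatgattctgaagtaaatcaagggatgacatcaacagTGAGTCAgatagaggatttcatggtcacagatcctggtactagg
Mmp3 promoter, chr9:7445712-7445821, plus strand: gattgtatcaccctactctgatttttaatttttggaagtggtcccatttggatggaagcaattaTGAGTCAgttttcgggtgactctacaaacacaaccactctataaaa
Mmp10 promoter, chr9:7502232-7502341, plus strand: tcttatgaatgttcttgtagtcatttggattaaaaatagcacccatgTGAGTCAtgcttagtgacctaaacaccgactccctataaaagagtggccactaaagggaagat
Mmp7 promoter, chr9:7691980-7692089, plus strand: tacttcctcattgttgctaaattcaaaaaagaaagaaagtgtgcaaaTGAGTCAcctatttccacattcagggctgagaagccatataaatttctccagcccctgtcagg
Mmp1a promoter, chr9:7464031-7464140, plus strand: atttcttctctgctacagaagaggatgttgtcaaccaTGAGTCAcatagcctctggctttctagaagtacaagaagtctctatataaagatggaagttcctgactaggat
Mmp1b promoter, chr9:7388027-7388136, minus strand: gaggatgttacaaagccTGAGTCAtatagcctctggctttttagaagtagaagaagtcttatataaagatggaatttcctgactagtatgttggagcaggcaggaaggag
The first base of the motif lies 35 bases before the start in Mmp13, 44 in Mmp12, 46 in Mmp3, 63 in Mmp10 and Mmp7, 73 in Mmp1a and 93 in Mmp1b. Mmp12 and Mmp7 each have another listed start whose window holds no such motif, and the windows of Mmp8 and Mmp20 hold none. Among the 65 genes, 37 had a promoter in the table (250 bases before to 50 after the start), and 9 of these held the motif (24.3%), against 5.95% of the 27025 genes listed. Of the 9, all but Adam19 and Adam1b belong to the chromosome 9 cluster, so this share is mostly that of 1 cluster of related genes. In Adam1b the motif begins 20 bases after the start. The cluster genes that hold it had differences of -1.17 (Mmp13), -1.03 (Mmp12), -0.33 (Mmp3), -0.24 (Mmp1b), -0.10 (Mmp1a and Mmp7) and 0.05 (Mmp10). Mmp8 and Mmp20, whose windows hold none, had differences of -0.12 and -0.14. A match is a description of the letters and not evidence of binding. Of 14 measured AP-1 and ETS factors, Junb, a Jun-family subunit of AP-1, was lower (log2 6.64 ± 0.33 with Lov and 7.30 ± 0.46 with Vhcl; difference -0.66, unadjusted p = 0.0116, adjusted p = 0.919), and none was higher. The median difference of the 14 was 0.06. For comparison, 2.75% of all genes were lower and 3.5% higher. Whether AP-1 factors bear on the Mmp13 difference was not tested.

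The gelatinases cleave denatured collagen and basement membrane collagen IV. Mmp2 had signals of 7.69, 7.44, 5.99, 7.01 and 6.23 in the Lov-treated tumors, against 7.05, 7.28, 6.84, 7.70 and 6.73 in the Vhcl-treated tumors. Lov A50 and AB10 were below every Vhcl-treated tumor and the rest overlapped (difference -0.25, standard error 0.32; unadjusted p = 0.452). Mmp9 was 4.69 ± 0.19 with Lov and 4.67 ± 0.19 with Vhcl (difference 0.02, unadjusted p = 0.862). Its 2 probe sets pointed in opposite directions, and both had group means below the median signal of the array (5.02). Of the remaining secreted enzymes, Mmp7 (matrilysin) differed by -0.10 and Mmp11 (stromelysin 3) by 0.32, neither past the test.

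Membrane-type matrix metalloproteinases act at the cell surface. Mmp16, a membrane-type enzyme that can activate the Mmp2 precursor, was the only one of the 65 genes that was higher. Its log2 signals were 8.80, 9.59, 9.65, 9.38 and 9.38 in the Lov-treated tumors, against 7.86, 8.90, 8.96, 8.64 and 9.02 in the Vhcl-treated tumors. All Lov-treated tumors other than A19 lay above every Vhcl-treated tumor. The mean was 9.36 ± 0.34 with Lov and 8.68 ± 0.48 with Vhcl, a 1.61-fold higher signal (difference 0.68, standard error 0.23; unadjusted p = 0.0115, adjusted p = 0.919; exact permutation p = 0.0317). All 4 Mmp16 probe sets were higher with Lov, by 0.52 to 0.72, and 3 of them had an unadjusted p under 0.05. Probe sets of one gene read the same RNA and are not replicates.

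Mmp14, the membrane-type enzyme that works with Timp2 in activating pro-Mmp2, did not differ in this way. Its signals were 7.69, 6.66, 6.24, 6.50 and 5.89 in the Lov-treated tumors, against 6.51, 7.46, 6.26, 7.04 and 6.37 in the Vhcl-treated tumors. Lov A19 was the highest of all and Lov AB10 the lowest (difference -0.13, standard error 0.32; unadjusted p = 0.689). Leaving out Lov AB10 turned the difference to 0.04. Mmp17 and Mmp24 had differences of -0.11 and 0.22.

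The TIMPs did not move as one. Timp1, an inducible inhibitor of most secreted matrix metalloproteinases, had signals of 6.96, 6.55, 5.33, 6.11 and 5.43 in the Lov-treated tumors, against 6.72, 7.08, 7.45, 7.02 and 5.97 in the Vhcl-treated tumors. Lov A50 and AB10 lay below every Vhcl-treated tumor, and the other 3 overlapped the Vhcl range. The mean was 6.08 ± 0.70 with Lov and 6.85 ± 0.56 with Vhcl, 1.71-fold lower (difference -0.77, standard error 0.34; unadjusted p = 0.0431, adjusted p = 0.932; exact permutation p = 0.0952). This call was lost when any 1 of 7 tumors was left out, all but Lov A19, Lov A48 and Vhcl AB11, with differences of -0.59 to -0.80 and unadjusted p of 0.0562 to 0.112. With all 10 tumors it was also lost with array weights (unadjusted p = 0.0688), with that beta-actin measure added as a covariate (-0.62, unadjusted p = 0.125), without moderation (unadjusted p = 0.0903) and on linear signals (unadjusted p = 0.075).

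Timp3, a matrix-bound inhibitor that also blocks Adam17 and aggrecanases, had signals of 6.94, 7.27, 6.96, 7.15 and 6.75 in the Lov-treated tumors, against 6.34, 6.68, 7.08, 6.76 and 6.81 in the Vhcl-treated tumors. The groups overlapped, with Vhcl A54 above 3 of the Lov-treated tumors and Vhcl A45 the lowest (difference 0.28, standard error 0.14; unadjusted p = 0.074). It passed the test without Lov AB10 (0.35, unadjusted p = 0.0369) and without Vhcl A54 (0.37, unadjusted p = 0.0218). These were the lowest Lov-treated and the highest Vhcl-treated tumor, so leaving out either widens the difference by construction. Timp2 had signals of 8.67, 9.15, 8.93, 9.48 and 8.95 in the Lov-treated tumors, against 7.73, 8.23, 9.23, 8.91 and 9.07 in the Vhcl-treated tumors. Vhcl A45 and A49 were lower than all other tumors, and the rest were mixed (difference 0.40, standard error 0.27; unadjusted p = 0.162). All 6 Timp2 probe sets and all 4 Timp3 probe sets had positive differences, 1 of them, of Timp2, at an unadjusted p under 0.05. Timp4 differed by 0.12.

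**Figure D2:**
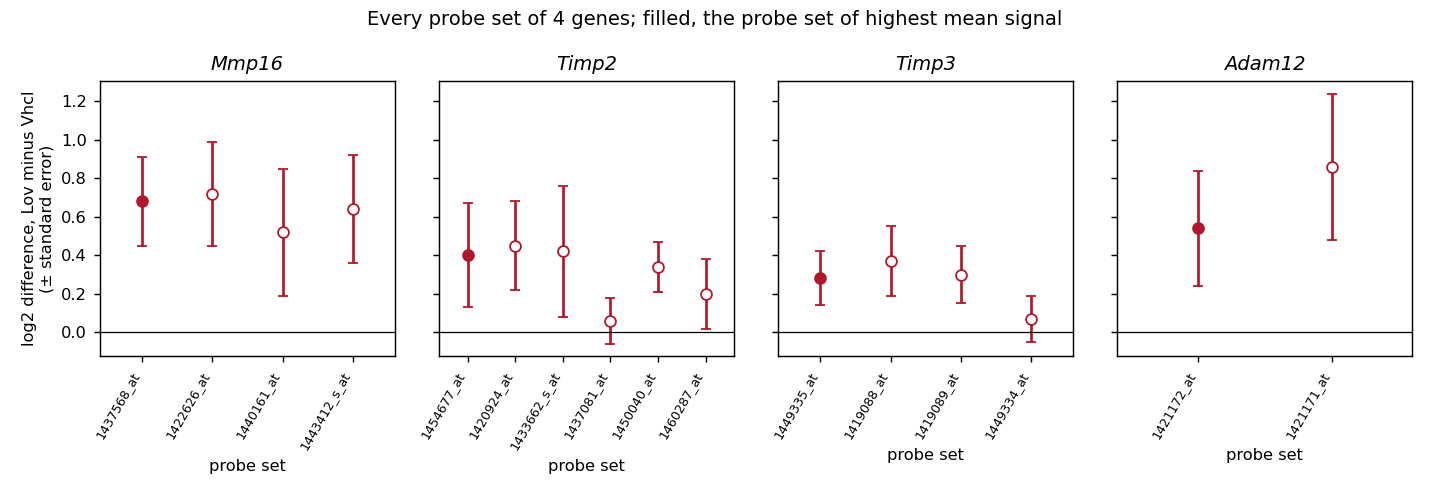
Log2 difference (Lov minus Vhcl, with its limma standard error, n = 5 tumors per group) of every probe set of Mmp16, Timp2, Timp3 and Adam12; filled circles mark the probe set of highest mean signal. All 16 lie above 0, those of Mmp16 between 0.52 and 0.72.

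Of the 9 somatic ADAMs with a catalytic site, only Adam9 passed the test. Adam9, which can shed heparin-binding EGF-like growth factor, had signals of 8.20, 8.28, 8.17, 8.26 and 7.56 in the Lov-treated tumors, against 8.62, 9.47, 8.43, 9.74 and 7.92 in the Vhcl-treated tumors. Vhcl AB11 lay below 4 of the 5 Lov-treated tumors, and the other 4 Vhcl-treated tumors lay above all of them. The mean was 8.09 ± 0.30 with Lov and 8.84 ± 0.75 with Vhcl, 1.67-fold lower (difference -0.74, standard error 0.31; unadjusted p = 0.0342, adjusted p = 0.932; exact permutation p = 0.0952). The call was lost without Lov A50 (-0.76, unadjusted p = 0.0502), Lov AB10 (-0.61, unadjusted p = 0.0879), Vhcl A49 (-0.58, unadjusted p = 0.0869) or Vhcl A59 (-0.52, unadjusted p = 0.0838). It was also lost over all 10 tumors with array weights (-0.60, unadjusted p = 0.0601), with the beta-actin covariate (unadjusted p = 0.0651), without moderation (unadjusted p = 0.0751) and on linear signals (unadjusted p = 0.0748).

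Adam8, a sheddase of leukocytes, had signals of 6.21, 5.61, 4.59, 4.45 and 4.62 in the Lov-treated tumors, against 5.19, 6.07, 5.98, 6.55 and 5.08 in the Vhcl-treated tumors. Lov A50, A55 and AB10 were below every Vhcl-treated tumor, while Lov A19 was the second highest of all 10 (difference -0.68, standard error 0.38; unadjusted p = 0.0973). Without Lov A19 the difference was -0.96 (unadjusted p = 0.0146) and without Vhcl AB11 it was -0.85 (unadjusted p = 0.0493). Lov A19 was the highest Lov-treated and Vhcl AB11 the lowest Vhcl-treated tumor, so leaving out either widens the difference by construction. With the beta-actin covariate the difference was -0.35 (unadjusted p = 0.352). Neutrophil marker genes averaged 4.01 to 4.41 with Lov and 4.22 to 4.51 with Vhcl. Of 6 measured, S100a9 was lower (difference -0.33, unadjusted p = 0.0312) and none was higher. For all genes the shares were 2.75% lower and 3.5% higher. The S100a9 means of 3.66 with Lov and 3.99 with Vhcl lay below the median signal of the array (5.02), and Csf3r differed by 0.10. The part of these marker genes in the Adam8 signal was not tested.

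Adam12, which cleaves insulin-like growth factor binding proteins, lay close together in the Lov-treated tumors, at 7.69, 7.95, 8.06, 7.75 and 7.68, against 8.10, 6.16, 7.54, 6.90 and 7.71 in the Vhcl-treated tumors. Vhcl A49 and A59 were the low tumors, and Vhcl A45 was the highest of all (difference 0.54, standard error 0.30; unadjusted p = 0.094). Without Vhcl A45 the difference was 0.75 (unadjusted p = 0.0191). As Vhcl A45 was the highest, leaving it out widens the difference by construction. A second Adam12 probe set differed by 0.86 (unadjusted p = 0.0446). Adam10 and Adam17, the main ectodomain sheddases, stayed near 0, with differences of 0.08 (standard error 0.15) and -0.02 (standard error 0.11). The sign of both changed when single tumors were left out. The 4 probe sets of Adam10 ran from -0.13 to 0.40, none with an unadjusted p under 0.05. Adam15 differed by 0.04 (standard error 0.09). None of the 3 ADAMs without a catalytic site and none of 16 further ADAMs, most of them known from testis, passed the test, and the differences of those 16 ran from -0.17 to 0.10.

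Among the 7 ADAMTS proteoglycanases, only Adamts15 passed the test, and the differences of the 7 ran from -0.50 to 0.06. Adamts15, which cleaves aggrecan and versican, had signals of 4.44, 4.47, 4.23, 4.27 and 4.24 in the Lov-treated tumors, against 4.96, 4.85, 4.74, 5.55 and 4.06 in the Vhcl-treated tumors. The Lov-treated tumors fell within a narrow range, below 4 Vhcl-treated tumors and above Vhcl AB11. Both group means lay below the median signal of the array (5.02). The mean was 4.33 ± 0.12 with Lov and 4.83 ± 0.53 with Vhcl, 1.42-fold lower (difference -0.50, standard error 0.21; unadjusted p = 0.0379, adjusted p = 0.932; exact permutation p = 0.0635). Leaving out Lov A50, A55 or AB10, or Vhcl A45, A49 or A59, ended the call, and without Vhcl A59 the difference was -0.32 (unadjusted p = 0.0853). Over all 10 tumors the call also ended with array weights (unadjusted p = 0.0536), with the beta-actin covariate (-0.39, unadjusted p = 0.122), without moderation (unadjusted p = 0.0736) and on linear signals (unadjusted p = 0.0691). Adamts1, Adamts4 and Adamts5, proteoglycan-cleaving enzymes as well, differed by -0.15, -0.12 and -0.21, and the procollagen-processing Adamts3 by -0.18. The 7 remaining ADAMTS genes lay between -0.14 and 0.19.

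**Figure D3:**
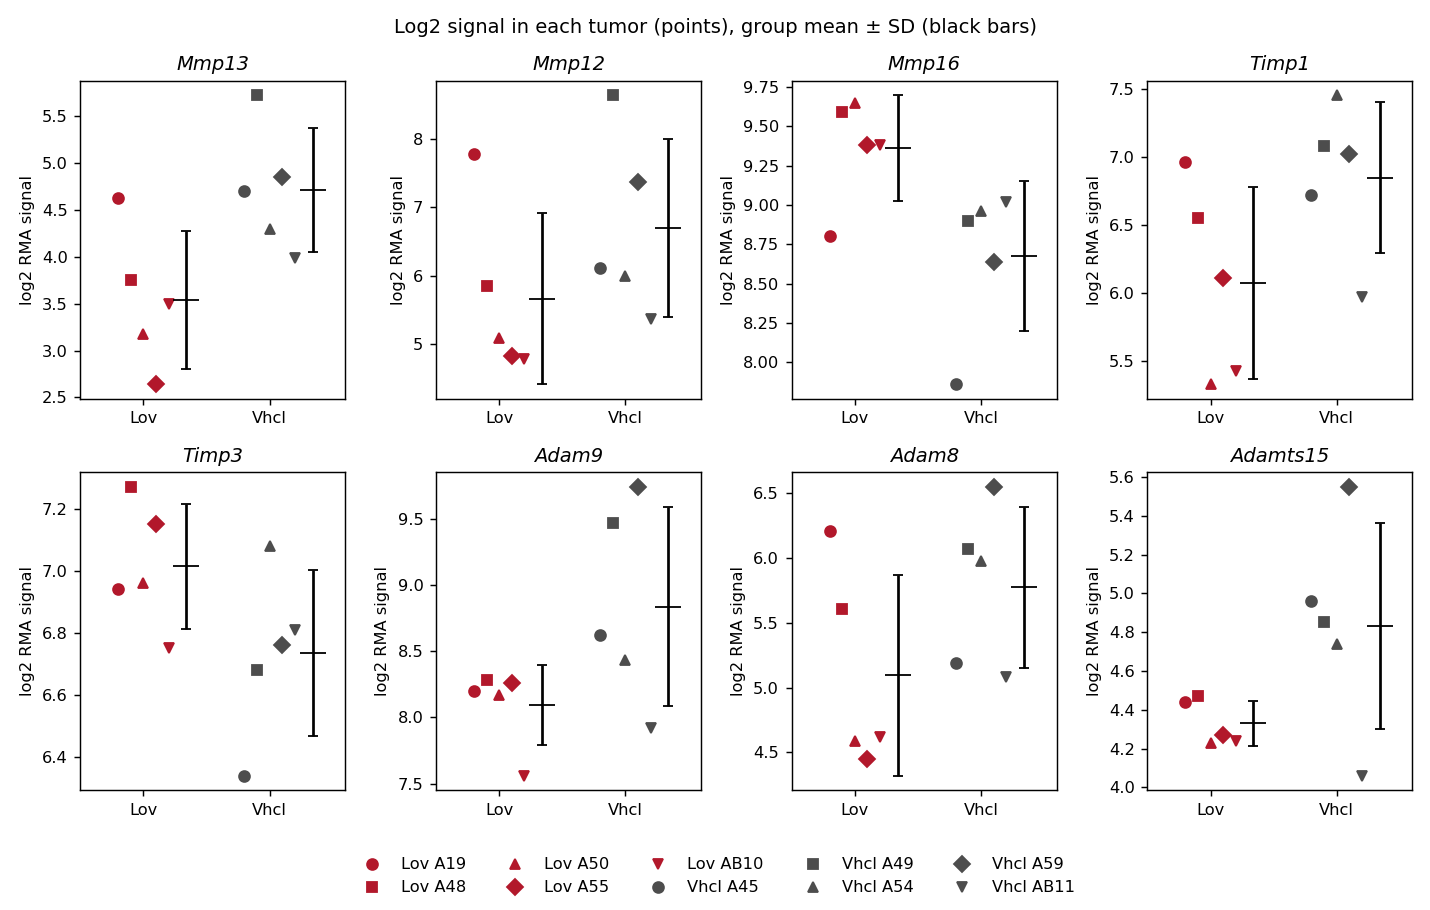
Log2 RMA signal of 8 genes in each of the 10 tumors (1 symbol per tumor, Lov in red and Vhcl in grey), with the group mean ± SD as black bars (n = 5 each); each panel has its own axis. Lov A19 is the highest Lov-treated tumor for Mmp13, Mmp12, Timp1 and Adam8, and Vhcl AB11 the lowest Vhcl-treated tumor for Mmp13, Mmp12, Timp1, Adam9, Adam8 and Adamts15.

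Single tumors carried part of the spread. Lov AB10 had the highest value of the Lov group in 20 of the 65 genes (30.8%, against 26.4% of all genes), Lov A19 in 19 (29.2%, against 21.9%), and Lov A50 the lowest in 20 (30.8%, against 17.3%). Among Vhcl-treated tumors, A54 was the highest in 22 genes (33.8%, against 20.6%) and A45 the lowest in 21 (32.3%, against 21% of all genes). Without the 3 tumors rich in skeletal muscle transcripts (Lov A55, Vhcl A54 and Vhcl A59), Mmp13 was still lower (-1.04, unadjusted p = 0.0415) and Mmp16 still higher (0.76, unadjusted p = 0.0362). Adam9 (-0.62, unadjusted p = 0.1), Timp1 (-0.52, unadjusted p = 0.257) and Adamts15 (-0.28, unadjusted p = 0.227) stayed negative but were not called. This setting kept only 4 Lov-treated and 3 Vhcl-treated tumors. It also left out the highest Vhcl-treated tumor for each of them, A59 for Adam9 and Adamts15 and A54 for Timp1. The part of muscle tissue in the lost calls was not tested. Without Vhcl AB11, the tumor rich in salivary transcripts, all 5 kept their calls and 3 genes, Adam9, Adamts15 and Mmp20, separated the groups, as did 2.24% of all genes. Among Vhcl-treated tumors, AB11 was the lowest for Mmp13, Adam9, Adamts15, Timp1 and Mmp20 and the highest for Mmp16. Leaving it out therefore widens these differences by construction.

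**Figure D4:**
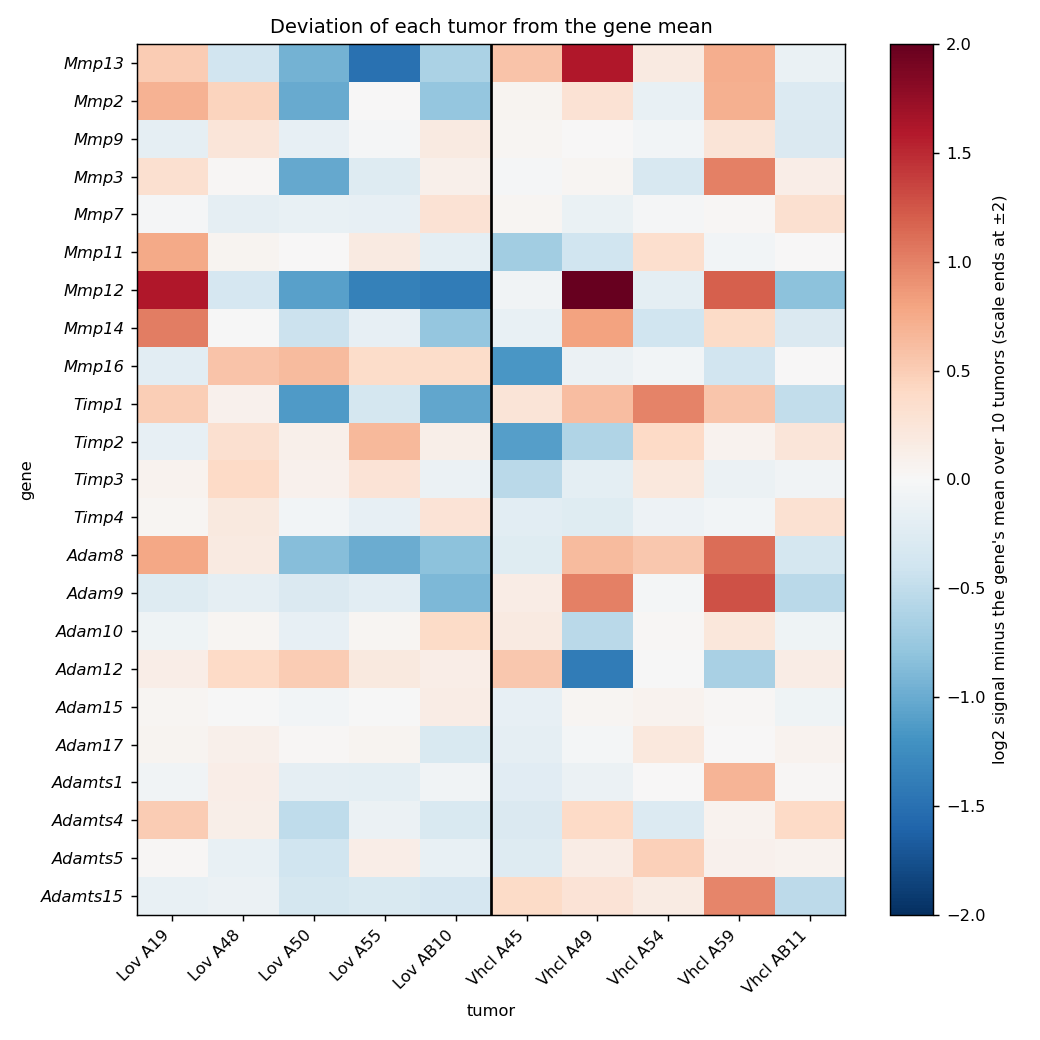
Log2 signal of the 23 named genes in each tumor minus that gene's mean over the 10 tumors (color scale from -2 to 2), Lov-treated tumors left of the black line and Vhcl-treated tumors right of it. Lov A19 is red for Mmp12, Mmp14, Adam8 and Mmp2, and Lov A50 and AB10 are blue for Mmp2, Mmp12 and Timp1.

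Across the 10 tumors, 8 pairs of genes were compared, each set by known biochemistry or usual source cell. For values centered within each group, the permutations still ran over all 10 tumors, which can make those p-values too small. Mmp2 and Mmp14 varied together (Pearson r = 0.80, permutation p = 0.0058, adjusted p = 0.0232; Spearman rho = 0.92, permutation p = 0.0006, adjusted p = 0.0048), also with values centered within each group (r = 0.80, adjusted permutation p = 0.0167). With Lov A50 and AB10 left out, r was 0.78 over 8 tumors, and its adjusted permutation p of 0.105 was no longer below the threshold. Mmp2 also varied with Col1a1, a collagen I chain made by fibroblasts (r = 0.83, permutation p = 0.00348, adjusted p = 0.0232; rho = 0.84, permutation p = 0.00362, adjusted p = 0.0145), and within groups r was 0.81 (adjusted permutation p = 0.0167). This relation rested in part on Lov A50 and AB10, without which r was 0.65 (adjusted permutation p = 0.171). The 10 fibroblast marker genes averaged 6.25 to 8.28 with Lov and 7.11 to 8.43 with Vhcl, lowest in Lov A50 and Lov AB10, and none of them passed the test between groups (median difference -0.38). Their part in the Mmp2, Mmp14, Mmp13 and Timp1 signals was not tested.

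Mmp13 and its inhibitor Timp1 varied together over all tumors (r = 0.72, permutation p = 0.0181, adjusted p = 0.0482; rho = 0.77, permutation p = 0.0124, adjusted p = 0.0331), but within groups r was 0.56 (adjusted permutation p = 0.189). Without Vhcl A49 and Lov A55 it was 0.83 (adjusted permutation p = 0.105). Mmp13 and Mmp14, whose product can activate the Mmp13 precursor, had r = 0.66 (permutation p = 0.0369, adjusted p = 0.0738; rho = 0.67, permutation p = 0.0389, adjusted p = 0.0779) and within groups r = 0.80 (adjusted permutation p = 0.0167) and rho = 0.72 (adjusted permutation p = 0.0628). Without Vhcl A49 and Lov A55 its r was 0.65 (adjusted permutation p = 0.171). No relation passed the test for Timp2 with Mmp2 (r = -0.17) or Mmp14 (r = -0.35), for Mmp12 with the macrophage receptor gene Csf1r (r = 0.03), or for Mmp9 with the myeloid integrin gene Itgam (r = 0.04). Mmp9 and Itgam lay below the median signal of the array (5.02) in every tumor, which limits what their correlation can show.

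**Figure D5:**
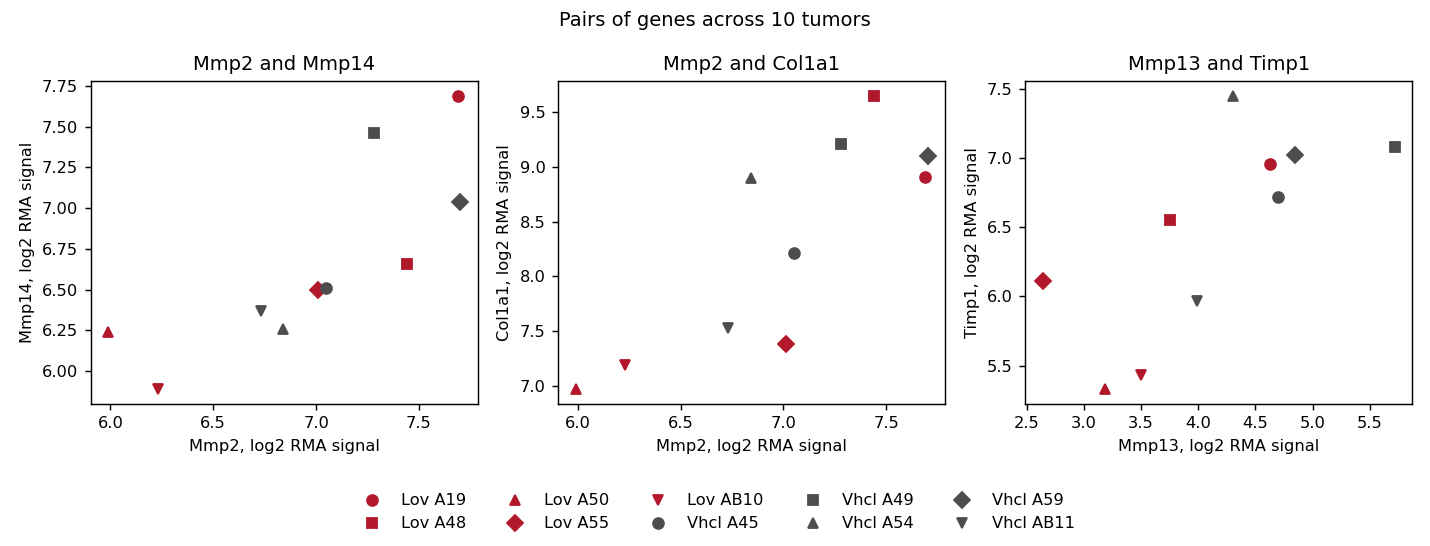
Log2 RMA signals of 3 pairs of genes in the 10 tumors (1 symbol per tumor, Lov in red and Vhcl in grey). Lov A50 and AB10 hold the low ends of Mmp2 against Mmp14 (r = 0.80) and of Mmp2 against Col1a1 (r = 0.83), and most Lov-treated tumors lie at the low end of Mmp13 against Timp1 (r = 0.72).

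Genes that act with the metalloproteinases were counted in lists set by function. Over all genes 3.5% were higher. Of 19 other inhibitors and activators, 2 were lower and none higher (median -0.08), where 2.75% of all genes were lower. A2m, alpha-2-macroglobulin, which traps proteases, had signals of 8.21, 8.54, 8.63, 8.23 and 7.92 in the Lov-treated tumors, against 8.72, 10.01, 9.60, 9.19 and 8.27 in the Vhcl-treated tumors. Of the Vhcl-treated tumors only AB11 reached into the Lov range (difference -0.85, standard error 0.29; unadjusted p = 0.0118, adjusted p = 0.919). Thbs1, thrombospondin 1, differed by -0.39 (standard error 0.12; unadjusted p = 0.00851, adjusted p = 0.919).

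Of 28 genes of proteins shed from the cell surface, 3 were lower and none higher (median 0.03), where 2.75% of all genes were lower. Hbegf, an EGF receptor ligand released by ADAMs, had signals of 6.11, 5.33, 5.00, 5.16 and 4.84 in the Lov-treated tumors, against 6.38, 5.54, 6.83, 6.68 and 5.93 in the Vhcl-treated tumors. Lov A19 overlapped the Vhcl range and the other 4 lay below it (difference -0.98, standard error 0.28; unadjusted p = 0.0044, adjusted p = 0.919). Cd44, the hyaluronan receptor, which the study also selected on these arrays, differed by -1.09 (unadjusted p = 0.0198) and Tnfrsf1a, a TNF receptor, by -0.30 (unadjusted p = 0.0182), both with an adjusted p of 0.928. Of 17 ADAMTS substrates, Vcan (versican) was lower, at 5.06 ± 0.56 with Lov and 6.06 ± 0.72 with Vhcl (standard error of the difference 0.35; unadjusted p = 0.0137, adjusted p = 0.926), with a median of -0.15 for the list. Of 9 iRhoms and TspanC8 tetraspanins, partners of Adam17 and Adam10, Tspan14 was higher (10.37 ± 0.21 with Lov and 9.85 ± 0.25 with Vhcl; difference 0.52, standard error 0.14; unadjusted p = 0.00315, adjusted p = 0.919), and the list median was -0.06. None of 9 genes of the plasminogen system (median -0.05) and none of 18 cathepsins and cystatins (median 0.05) had an unadjusted p under 0.05.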

How the data were processed

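Total RNA from 10 whole tumors (5 Lov, 5 Vhcl) had been hybridized to Affymetrix mouse whole-genome arrays. The deposited values are log2 signals that the authors had summarized by RMA in the affy package, per the submitters' processing notes (version not given in the sources used here). Arrays have no sequencing depth, and the number of tumors limits precision. After 64 control probe sets were left out, 45037 were fitted with limma 3.58.1 in R 4.3.3 (prior degrees of freedom 3.61) with Benjamini-Hochberg adjustment, a script tested on simulated data. Of these, 34945 carried 1 gene symbol, 932 several and 9160 none. Exact permutation tests enumerated 252 assignments. Correlations used 100000 permutations. Sequences came from a RefSeq promoter table. Genes and lists were chosen with earlier results of these data known. Named were genes with an unadjusted p under 0.05, the 3 most variable, and a fixed set of well-known genes. Alternatives covered the prior, array weights, moderation, scaling, covariates, probe sets, filters and single tumors left out, and 2 more were chosen after seeing the data.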

Additional observations from a re-analysis of the deposited data

Results flagged for a closer look

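In each group of 5, the named genes were searched for a tumor whose gap to its nearest neighbor was large against the group's range (46 groups, of which chance flags about 5%). This picked out 3 values. Adam9 was 7.56 in Lov AB10, where the next Lov-treated tumor had 8.17. Adam17 was 7.69 in the same tumor, where the next had 8.03. Adamts1 was 6.52 in Vhcl A59, where the next Vhcl-treated tumor had 5.85.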

How the results depend on the processing

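The median difference over the 65 genes (-0.02) stayed between -0.06 and 0.02 under the alternatives run, highest without the muscle-rich tumors Vhcl A54, A59 and Lov A55. Of 500 differences of the 23 named genes under alternatives, 440 kept direction and side of the threshold, and 15 changed sign. Mmp16 kept its call in all 22 alternatives, and Mmp13 in all but linear signals, among those in which it was tested. The number lower (4) became 1 with beta-actin 3′ minus 5′ as a covariate (Mmp13, against 3.81% of all genes). It was 2 among genes above the median signal, where the share of all genes was not computed. Without moderation it was 2 (Mmp13 and Mmp20, against 2.23% of all genes). With array weights it was 3 (Mmp13, Adam25 and Mmp1b, against 2.87% of all genes). It was 1 without Vhcl A54, A59 and Lov A55 (1.57% of all genes). With single tumors left out it ran from 1 (without Lov A50, 2.69% of all genes, or Vhcl A59, 2.4%) to 6 (without Lov A19, 3.68%). Adam9, Adamts15 and Timp1 were thus not called with the covariate, without moderation or with array weights. The number higher (1) became 2 with array weights (4.21% of all genes). With the beta-actin covariate it was 4 (Mmp16, Mmp11, Mmp24 and Adamts18, against 3.41% of all genes). It was 2 with the mean of all probe sets, where the share of all genes was not computed. With single tumors left out it was 1 to 2. It was 2 without Lov AB10 (3.38% of all genes), Vhcl A45 (3.51%) or Vhcl A54 (4.49%). The 2-fold count (1) became 0 above the median signal and 0 (Lov A55 or Vhcl A49) to 2 (Lov A19) with single tumors left out. The number without overlap (0) was 1 without Vhcl A54, A59 and Lov A55 (3.39% of all genes). With single tumors left out it was 0 to 3 (without Vhcl AB11, 2.24% of all genes). Probe sets past the false discovery rate numbered 0 to 1 (Vhcl A54) with single tumors left out.

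A further alternative, chosen after seeing the data, left out Lov A19 and Vhcl AB11 together. It gave 4 genes at 2-fold, 7 without overlap (5.13% of all genes) and 4 probe sets past the false discovery rate. Lov A19 was picked because its values lay near those of Vhcl-treated tumors, so this choice used the outcome. The range of the median difference, the counts over 500 differences and the calls of Mmp16 and Mmp13 over the alternatives include it. No other result in the text rests on it.

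Signs changed for Adam17 (0.01 with array weights, 0.02 without the muscle-rich tumors), Adamts1 (0.01 with the beta-actin covariate, 0.07 without the muscle-rich tumors), Mmp9 (-0.02 with the mean of probe sets) and the correlation of Mmp12 with Csf1r (-0.47 without Vhcl A49 and Lov A19). With single tumors left out, differences ran from -0.04 to 0.15 for Adam10, -0.07 to 0.05 for Adam17, -0.22 to 0.01 for Adamts1, -0.05 to 0.09 for Mmp9 and -0.41 to 0.05 for Mmp14. The causes were not tested. Correlations that changed sides are given with the pairs. No paired analysis was possible because the labels give no replicate numbers shared between groups.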
